A study of Mus musculus with 6 samples.

Results

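Genes for potassium, calcium, sodium and transient receptor potential (TRP) channels were described in lymph node (LN) endothelial cells. They were chosen by name alone, as genes whose symbols begin with Kcn, Cacna, Cacnb or Cacng, or with Scn, Trpa, Trpc, Trpm or Trpv followed by a number. Of the 18193 genes with a probe set of their own, 139 were channel genes by this rule, and they held 292 of the 45037 probe sets that are not controls. The rule also took in genes that encode no channel subunit, namely Trpc4ap, whose product associates with a TRP channel, and the noncoding RNA genes Kcnq1ot1, Kcnmb4os1 and Kcnmb4os2. A further 2 probe sets, for Trpc2, were shared with other genes and were not used. A single probe set stood for 57 of the channel genes and several for 82, and each gene is given at the brightest of its probe sets, by the mean of the 6 arrays.

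RNA came from C57BL/6 mice that were 6 weeks old, with no treatment named in the labels. Skin-draining and mesenteric LN were pooled and digested, CD45+ cells were depleted with magnetic beads, and live CD45neg cells were sorted by gp38 and CD31. The 3 arrays with LEC and CD31+ in their labels are called CD31+ below, and the 3 with BEC and double positive in theirs are called double positive. The study's own gate for LEC was gp38+ CD31+ and that for BEC was gp38neg CD31+, so each label contradicts itself. The gate was used to name the groups, and every difference below is double positive minus CD31+ on the log2 scale. If the cell type in the labels were right instead, every sign would turn. LN of several sites were pooled before sorting, so no value belongs to 1 node or 1 vessel type.

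Potassium channels set the membrane voltage of endothelial cells, and with it the driving force for calcium entry. Electrically excitable cells also use voltage-gated sodium and calcium channels, whereas endothelial calcium entry is mainly known to pass through TRP and store-operated channels. Channel messages are in general scarce, since few channels carry the current of a cell.

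The arrays were placed by the endothelial markers on the side of their gate. Of 13 measured genes of lymphatic endothelium 7 passed the test as higher in the double positive arrays, and of 14 measured genes of blood endothelium 5 passed as lower. Pdpn, the gene of gp38, was among those that passed, with means of 7.64 on the double positive and 3.58 on the CD31+ arrays (adjusted p = 0.0428 from limma). Lyve1 passed too, with 11.08 and 5.76 (adjusted p = 0.0111 from limma). Prox1, the regulator of lymphatic identity, did not pass, with means of 7.50 and 7.43. Mean log2 levels over the lymphatic list were 7.50 to 8.02 on the double positive arrays and 3.95 to 4.32 on the CD31+ arrays, and over the blood list 4.52 to 4.86 and 6.86 to 7.35. Of 11 measured genes of fibroblastic reticular cells, Postn and Thy1 passed as higher in the double positive arrays, with means of 11.33 against 6.73 and of 6.61 against 3.58, while Col1a2 and Col3a1 had differences of -3.11 and -3.15 and did not pass. The probe set of Pecam1, the gene of CD31, lay near the lowest value of the data in both groups, at a mean of 2.41 and 2.48. Differences were tested with limma over all 45037 probe sets at a false discovery rate (FDR) of 5%, and with 3 arrays a group an exact permutation test could not give a two-sided p below 0.1. The double positive arrays were brighter over bright probe sets, and centring each array on these lowered every difference by 0.68. In bulk RNA, fewer cells of a type and less RNA per cell cannot be told apart.

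Of the 139 channel genes, Kcna2 was higher and Kcna5 was lower in the double positive arrays at 5% FDR by limma. The count of 1 higher gene stands beside 0.879% of all genes called in that direction, and the count of 1 lower gene beside 0.176%. At an unadjusted p under 0.05 from limma, 3 channel genes were higher (Kcna2, Scn3b and Kcnk5), where 12.5% of all genes were, and 2 were lower (Kcna5 and Kcnq1), where 2.12% of all genes were. The values of both groups did not overlap for 5 channel genes that were higher (Kcna2, Scn3b, Kcnj8, Kcnk5 and Cacna1e), against 16.9% of all genes, and for 2 that were lower (Kcna5 and Kcnq1), against 3.42%. Cacna1e lay close to the lowest value of the data, at 2.39, 2.47 and 2.50 on the CD31+ arrays and 2.53, 2.61 and 2.50 on the double positive arrays, so its separation is no measure of a difference.

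Kcna2 and Kcna5 both encode pore subunits of Shaker-type voltage-gated potassium channels, which open on depolarization and return the membrane to rest. Both are known from neurons or from the smooth muscle of vessels. Their promoters, shown because these are the genes that passed the test, lie on chromosome 3 (Kcna2, chr3:107101317-107101616, plus strand) and chromosome 6 (Kcna5, chr6:126535506-126535805, minus strand) of GRCm38.p6 in RefSeq. Each run gives 250 bases before to 50 bases after the gene start, 5′ to 3′ on the gene's strand, with CG pairs in capitals.
Kcna2: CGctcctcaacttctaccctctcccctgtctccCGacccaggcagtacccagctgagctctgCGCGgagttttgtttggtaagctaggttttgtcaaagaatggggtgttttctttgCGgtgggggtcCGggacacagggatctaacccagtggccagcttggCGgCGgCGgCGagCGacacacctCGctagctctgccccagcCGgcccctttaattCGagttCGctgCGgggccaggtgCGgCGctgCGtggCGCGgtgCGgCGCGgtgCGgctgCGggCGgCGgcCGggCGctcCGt
Kcna5: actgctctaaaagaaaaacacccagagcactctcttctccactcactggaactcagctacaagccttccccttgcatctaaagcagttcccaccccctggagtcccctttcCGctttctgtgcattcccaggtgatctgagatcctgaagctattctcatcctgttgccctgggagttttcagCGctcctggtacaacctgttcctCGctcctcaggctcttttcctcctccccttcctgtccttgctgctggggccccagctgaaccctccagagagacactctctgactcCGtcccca
The Kcna2 window holds 31 CG pairs and 66.7% G or C, and 10.6% of the 32851 promoters in the table hold at least as many CG pairs. The Kcna5 window holds 4 CG pairs and 55.0% G or C, and 38.0% of promoters hold at most as many. The median promoter holds 7 CG pairs, and these counts describe the letters alone. Kcna2 lies between Kcna3 and Kcna10, and Kcna5 has Kcna1 as its neighbour, with Kcna6 as the next gene. Kcna1 was at the floor of the data on all 6 arrays, and Kcna3 and Kcna6 stayed under 3 in both groups.

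Kcna5 had log2 levels of 5.42, 6.05 and 5.62 on CD31+ replicates 1 to 3, and of 2.53, 2.73 and 2.89 on double positive replicates 1 to 3. All CD31+ arrays were far above all double positive arrays, which lay close to the lowest value of the data. The means were 5.70 ± 0.326 (SD, n = 3) and 2.72 ± 0.179 (SD, n = 3), which differ by -2.98 (standard error 0.206, 95% confidence interval -3.53 to -2.43, adjusted p = 0.0305 from limma). With 1 group so close to the floor, no exact fold is given. Within each of the 3 replicate numbers the double positive array was the lower one. With the replicate number as a block, Kcna5 had an adjusted p of 0.181 from limma. No channel gene passed in that fit, in which 2 of all 18193 genes were called higher and 0 lower. Kcna5 was also in the fit of the 6088 bright probe sets, those with a log2 level of at least 5 on at least 3 arrays, but through its CD31+ arrays alone, so its call there adds nothing. With any 1 array left out its difference was -3.12 to -2.80, and it passed only without CD31+ replicate 2 (adjusted p = 0.0496 from limma), at up to 0.126 without another. Among the 12 listed genes of pericytes and smooth muscle the differences were -2.92 for Pdgfrb, -2.34 for Acta2, -1.63 for Notch3 and -1.60 for Abcc9. They were 0.33 for Rgs5, 0.65 for Mylk, -0.35 for Tagln, -0.24 for Myh11 and -0.05 for Cspg4. Lmod1, Cnn1 and Des, at the floor on all 6 arrays, had -0.01, 0.00 and 0.00. None of the 12 passed 5% FDR by limma. The part of such cells in the Kcna5 values was not tested. Without both arrays numbered 2, which stood apart for some channel genes below, the difference was -2.81 (adjusted p = 0.209 from limma).

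Kcna2 had log2 levels of 2.69, 2.64 and 2.64 on the CD31+ arrays, and of 4.34, 4.29 and 4.78 on the double positive arrays. The CD31+ values lay near the lowest value of the data, and all double positive values lay above them. The means were 2.66 ± 0.0290 (SD, n = 3) and 4.47 ± 0.274 (SD, n = 3), which differ by 1.81 (standard error 0.153, 95% confidence interval 1.40 to 2.22, adjusted p = 0.0406 from limma). No exact fold is given here either, since the CD31+ values lay near the floor and 2 of them were identical. This rested on 1 of its 4 probe sets, the others lying near the floor in both groups with differences of -0.12, -0.08 and 0.04. The adjusted p from limma was 0.221 with the block, and with any 1 array left out it passed only without double positive replicate 3 (0.00973, at up to 0.153 without another). Without both arrays numbered 2 the difference was 1.89 (adjusted p = 0.302 from limma). With centred arrays the difference was 1.13 (adjusted p = 0.000575 from limma), but centring shifts values at the floor by construction and nothing is read from that p. With its 4 probe sets averaged the difference was 0.41 (adjusted p = 0.0498 from limma), which rests on the same 1 probe set and adds no separate evidence. No Kcna2 value reached 5, so the gene was not in the fit of bright probe sets.

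**Figure D1:**
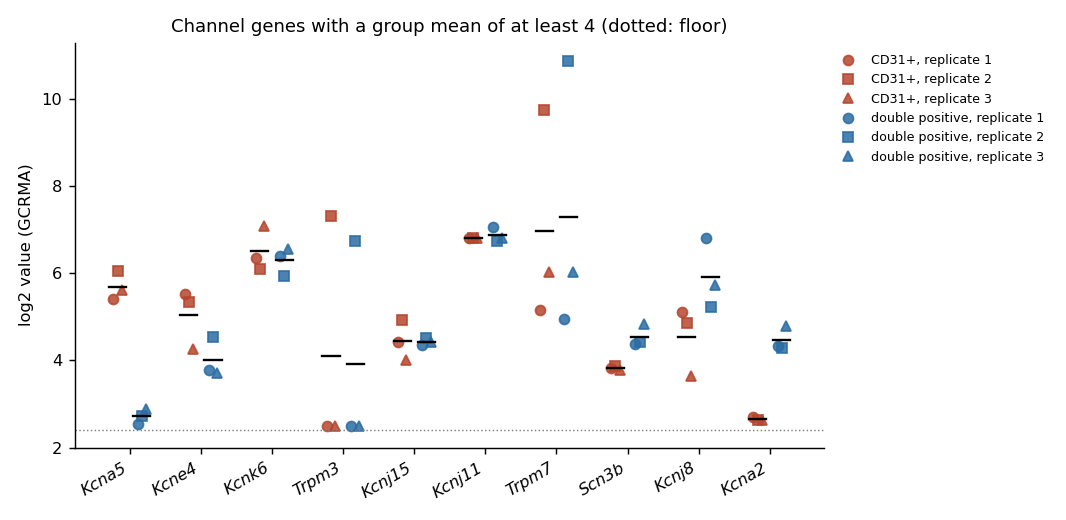
Log2 level on each array of the 10 channel genes with a mean of at least 4 in either group, CD31+ in red and double positive in blue, with 1 marker shape per replicate number, a bar at each group mean and the floor of the data as a dotted line. Kcna5 sits between 5.42 and 6.05 on the CD31+ arrays and between 2.53 and 2.89 on the double positive arrays, and Kcna2 at 2.64 to 2.69 and 4.29 to 4.78.

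Most channel genes were at or near the floor. The values have a lowest level of 2.39, and a gene was counted as at the floor when it lay within 0.1 of it. On all 6 arrays 55 of the 139 channel genes (39.6%) were at the floor, against 26.1% of all genes. A further 60 stayed under a mean of 3 in both groups, 14 reached a mean of 3 to 4 in either group, and 4 reached 4 to 5 (Kcna2, Kcnj15, Scn3b and Trpm3). Only 6 reached 5 or more in either group (Kcna5, Kcne4, Kcnj8, Kcnj11, Kcnk6 and Trpm7), which is 4.32% of channel genes, where 24.7% of all genes did. On single arrays 45 to 54 channel genes lay above the floor, or 32.4% to 38.8%, where 57.6% to 61.5% of all genes did. A low level on an array does not show that a channel is missing from the cells, since the affinity of the probes also sets it. Of the 292 probe sets 175 were at the floor on all 6 arrays. Of the 82 genes with several probe sets, 23 had 2 or more above the floor and 3 had 2 or more with a mean of at least 3, so that most channel genes were read from 1 probe set.

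**Figure D2:**
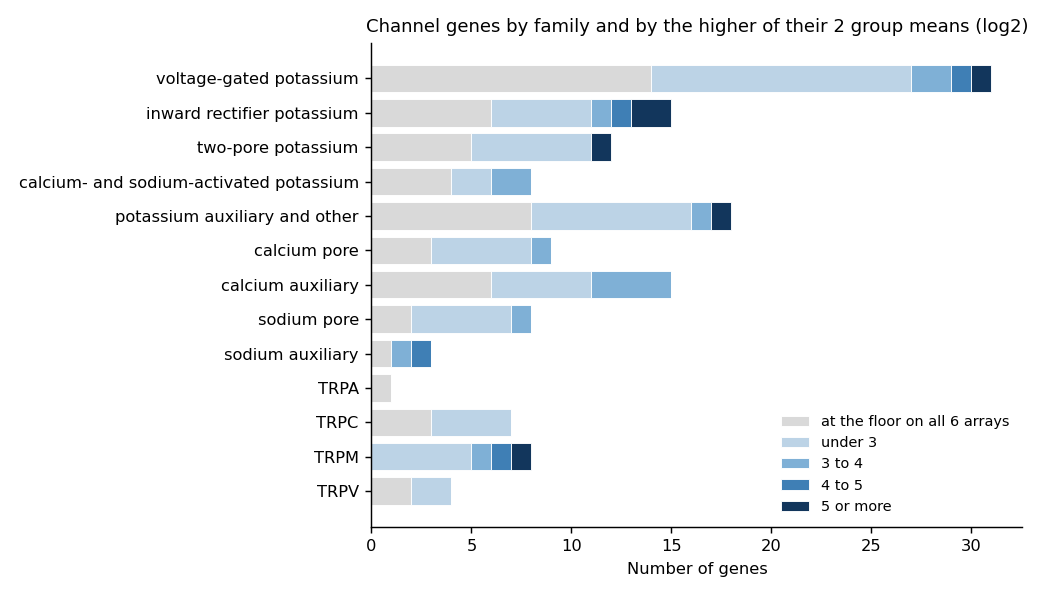
Number of genes in each channel family by level: at the floor on all 6 arrays, under 3, 3 to 4, 4 to 5, and 5 or more (log2, the higher of both group means). Genes at the floor or under 3 make up most of each family except the 3 sodium channel beta subunits, with 55 and 60 of 139 genes in all.

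The differences were small over the group. The median difference over the 139 channel genes was 0.00, as it was over all genes, and the range was -2.98 to 1.81. A difference within 0.5 of 0 was found for 130 channel genes, and for 13714 of all 18193 genes. One of more than 1 was found for 5 channel genes (3.60%), where 12% of all genes had one. Genes at the floor in both groups can show no difference, and they are part of these counts. Of the 84 channel genes above the floor on an array, 75 lay within 0.5 of 0, as did 8960 of 13439 such genes in all. Differences of more than 1 made up 5.95% and 16.3% of these.

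**Figure D3:**
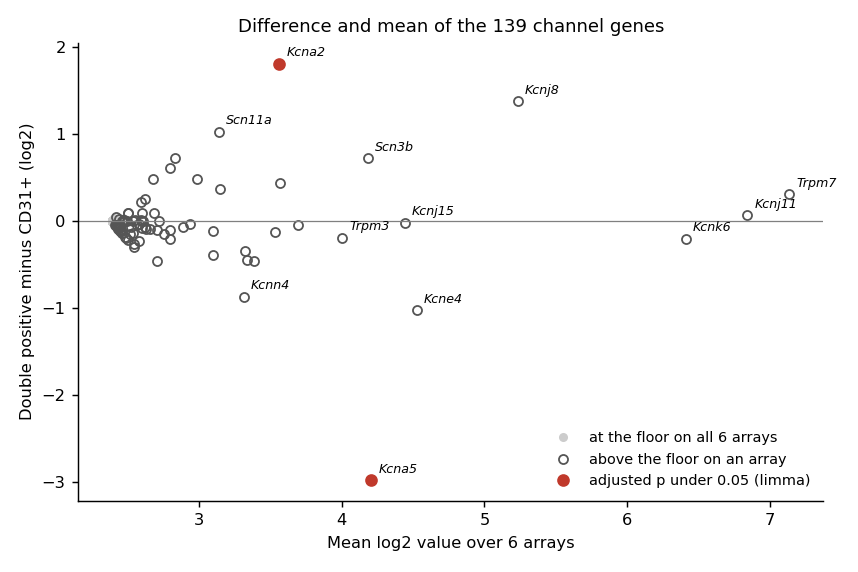
Difference (double positive minus CD31+, log2) of each of the 139 channel genes against its mean log2 level over the 6 arrays, with filled red points for genes past 5% FDR by limma, open points for the others and grey points for genes at the floor on all 6 arrays. Kcna2 (1.81) and Kcna5 (-2.98) stand apart, and 130 genes lie within 0.5 of 0, those at the floor included.

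Of the 31 voltage-gated potassium channel genes, Kcna2 and Kcna5 included, 14 were at the floor on all 6 arrays, including Kcna4, Kcnh2 and Kcnq5. Kcnq1, a slowly activating channel of heart and epithelia, had 3.71, 3.82 and 3.32 on the CD31+ arrays and 3.19, 3.16 and 3.12 on the double positive arrays. The groups did not overlap, and the difference of -0.46 had an adjusted p of 0.443 from limma. Kcnq1ot1, a long noncoding RNA transcribed antisense within Kcnq1, had 3.28, 4.12 and 3.29 and 3.09, 3.86 and 2.39. Its groups overlapped, and the highest value of each lay on replicate 2. Kcna7 had the value 3.48 on 3 arrays and 3.46 to 3.83 on the others.

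The inward rectifiers (Kcnj) pass potassium into the cell more easily than out of it and hold the resting voltage. Of 15 measured, 6 were at the floor on all 6 arrays. Kcnj2, the rectifier best known from endothelium, stayed under 3 in both groups. Kcnj8 encodes the pore of an ATP-sensitive channel of vessels, is widely used as a pericyte marker, and lies beside Abcc9, the gene of its regulatory subunit. Kcnj8 had log2 levels of 5.12, 4.87 and 3.63 on the CD31+ arrays, and of 6.81, 5.23 and 5.72 on the double positive arrays. Every double positive array was above every CD31+ array, the nearest values being 5.23 and 5.12. The difference was 1.38 (95% confidence interval -0.31 to 3.07, adjusted p = 0.659 from limma), and with centred arrays it was 0.70.

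Abcc9 had 5.54, 4.84 and 3.34 on the CD31+ arrays and 3.51, 2.68 and 2.74 on the double positive arrays, with -1.60 between the means (adjusted p = 0.651 from limma). Its sign was opposite to that of Kcnj8, although CD31+ replicate 3 was the lowest array of that group for both. Of the 12 listed genes of pericytes and smooth muscle none was called in either direction by limma, with Acta2 and Pdgfrb lower and Mylk higher at an unadjusted p under 0.05. Des, Cnn1 and Lmod1 were at the floor on all 6 arrays, whereas 4 of the 12 reached a mean of 5 on the CD31+ arrays and 2 on the double positive arrays. Rgs5 had means of 7.12 on the CD31+ arrays and 7.45 on the double positive arrays, and Mylk had 6.75 and 7.40. The mean level of the list was 3.77 to 4.76 on the CD31+ arrays and 3.56 to 3.71 on the double positive arrays. Pdgfrb, the platelet-derived growth factor receptor of pericytes, had 7.06, 8.50 and 5.12 on the CD31+ arrays and 4.14, 4.78 and 2.99 on the double positive arrays. The part of such cells in the Kcnj8 values was not tested.

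Kcne4, an auxiliary subunit that dampens voltage-gated potassium channels, had 5.52, 5.35 and 4.26 on the CD31+ arrays and 3.79, 4.55 and 3.71 on the double positive arrays. The groups overlapped, CD31+ replicate 3 was again the lowest of its group, and the difference of -1.03 had an adjusted p of 0.659 from limma. Of the 18 auxiliary and other potassium channel genes it was the one that reached 5, and 8 were at the floor on all 6 arrays, among them Kcnmb1, the smooth muscle subunit of the large-conductance calcium-activated channel.

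**Figure D4:**
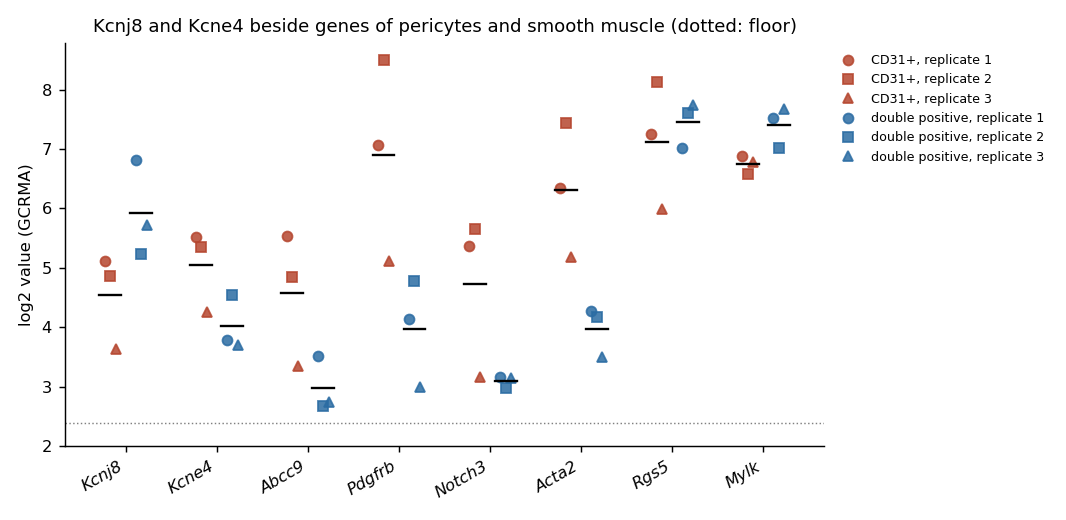
Log2 level on each array of Kcnj8 and Kcne4 beside Abcc9 and genes of pericytes and smooth muscle (Pdgfrb, Notch3, Acta2, Rgs5 and Mylk), chosen for the plot after their values were seen, with 1 marker shape per replicate number, bars at the group means and the floor dotted. CD31+ replicate 3 is the lowest CD31+ array for each gene shown except Mylk, and Kcnj8 is higher on each double positive array than on each CD31+ array, unlike Abcc9.

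Kcnj11 encodes the other pore of ATP-sensitive channels, known from the beta cell, where it joins the product of its neighbour Abcc8. Its log2 level was 6.81 on each CD31+ array, and 7.06, 6.75 and 6.81 on the double positive arrays. The same value, to 4 decimals, stood on 4 of the 6 arrays, and the difference was 0.07 (adjusted p = 0.776 from limma). Kcnj15, an epithelial rectifier, had 4.42, 4.92 and 4.02 on the CD31+ arrays and 4.36, 4.51 and 4.43 on the double positive arrays, and the double positive values lay within the range of the others.

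Values that recur exactly on several arrays were common among channel genes. Of the 84 channel genes above the floor on at least 1 array, 47 (56.0%) had 1 value on 3 or more arrays, where 34.1% of all genes above the floor and 2.03% of genes with a mean of at least 5 did. Kcna3, known from lymphocytes, had 2.55 on 5 arrays. A repeated value shows no change between those arrays and is no measure of a level.

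The two-pore channels (Kcnk) carry the background leak of potassium. Kcnk6, the one such gene that reached 5, had 6.35, 6.10 and 7.08 on the CD31+ arrays and 6.41, 5.94 and 6.57 on the double positive arrays. The groups overlapped, with a difference of -0.20 (95% confidence interval -1.10 to 0.69, adjusted p = 0.848 from limma). Kcnk5, an acid-sensitive leak channel, had 2.43, 2.45 and 2.45 and 2.72, 3.28 and 2.77. These groups did not overlap, at levels close to the floor, and the difference of 0.48 had an adjusted p of 0.524 from limma. Of the 12 measured, 5 were at the floor on all 6 arrays.

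Calcium-activated potassium channels (Kcnn) of small and intermediate conductance are known from arterial endothelium, where they hyperpolarize the cell after calcium entry. Kcnn1, Kcnn2 and Kcnn3 were at the floor on all 6 arrays. Kcnn4, the intermediate-conductance channel, which T cells and other leukocytes also use, had 4.67, 2.97 and 3.61 on the CD31+ arrays and 3.10, 2.75 and 2.79 on the double positive arrays. The groups overlapped, and the difference of -0.87 had an adjusted p of 0.659 from limma. It ranged from -1.26 without CD31+ replicate 2 to -0.41 without CD31+ replicate 1. Over the 11 measured leukocyte markers, of which 5 were at the floor on all 6 arrays, the mean level was 3.29 to 3.55 on the CD31+ arrays and 3.19 to 3.25 on the double positive arrays. The markers differed among themselves. Laptm5 was bright in both groups, at means of 10.87 on the CD31+ arrays and 10.29 on the double positive arrays. Ptprc, the gene of CD45, had 4.37, 2.77 and 4.03 and 2.53, 2.74 and 2.74, and Csf1r had means of 2.64 and 2.70. None of these 3 passed 5% FDR by limma. The part of leukocytes in the Kcnn4 values was not tested.

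Of the voltage-gated calcium channels, 3 of 9 pore genes and 6 of 15 auxiliary genes were at the floor on all 6 arrays. Cacna1c, the cardiac and smooth muscle pore, and the low-threshold channel Cacna1h were among the genes at the floor. No calcium channel gene passed at an unadjusted p under 0.05 from limma. Cacna1a, a neuronal pore, had 2.92, 2.93 and 3.04 on the CD31+ arrays and 4.11, 2.95 and 2.95 on the double positive arrays, so that 1 array stood apart. Cacng2, a subunit better known as an auxiliary protein of glutamate receptors, had 3.16, 3.65 and 3.24 and 3.14, 5.40 and 2.83, with double positive replicate 2 as the high array. Cacna2d1, an auxiliary subunit that gabapentin binds, had 2.69, 2.40 and 2.39 and 3.53, 2.69 and 3.09, with 0.61 between the means (adjusted p = 0.637 from limma).

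Of the 8 sodium channel pore genes 2 were at the floor on all 6 arrays, and 1 of the 3 beta subunit genes was. Scn3b, a beta subunit that also acts in cell adhesion, had 3.82, 3.88 and 3.78 on the CD31+ arrays and 4.37, 4.43 and 4.83 on the double positive arrays. The groups did not overlap. The difference was 0.72 (95% confidence interval 0.34 to 1.10, adjusted p = 0.187 from limma), and with centred arrays it was 0.04. Its other probe set was at the floor on all 6 arrays. Scn11a, a pore of pain-sensing neurons, had 2.46, 2.62 and 2.80 and 4.59, 2.80 and 3.58, with the lowest double positive array level with the highest CD31+ array, and 1.03 between the means (adjusted p = 0.659 from limma), or 0.56 to 1.46 with any 1 array left out. Over the 10 measured genes of neurons and Schwann cells, the mean level was 2.71 to 2.91 on the CD31+ arrays and 2.63 to 2.81 on the double positive arrays.

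The TRP channels pass calcium and other cations on chemical, thermal or mechanical stimuli. Trpv4, a mechanosensitive channel of endothelium, Trpc1, Trpc5, Trpv1 and Trpa1, a sensor of irritants, were at the floor on all 6 arrays, and the group means of Trpc4 and Trpc6 were under 3. Trpc2, a channel of pheromone-sensing neurons, had 2.90, 2.86 and 2.80 on the CD31+ arrays and 2.68, 3.01 and 2.56 on the double positive arrays. Trpv6, an epithelial calcium channel, left the floor on CD31+ replicate 2 alone, at 2.80.

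Trpm7, a channel for magnesium and calcium fused to a kinase, was the TRP gene that reached 5. At its brightest probe set it had 5.16, 9.74 and 6.04 on the CD31+ arrays and 4.95, 10.87 and 6.04 on the double positive arrays. The array numbered 2 was by far the highest in both groups, and the difference was 0.31 (standard error 2.20, adjusted p = 1.00 from limma), or -0.10 without both arrays numbered 2. Another probe set of Trpm7 had 5.57, 5.58 and 4.46 and 6.25, 6.47 and 6.14. There the groups did not overlap, with a difference of 1.09 (adjusted p = 0.492 from limma over all probe sets, 0.0441 among bright probe sets, and 0.340 among those with centred arrays), while the other 2 probe sets were at the floor on all 6 arrays. Among bright probe sets, with each gene at its brightest, 5 channel genes were in the fit (Kcna5, Kcnj8, Kcnj11, Kcnk6 and Trpm7), of which limma called 1 lower (Kcna5) and 0 higher, where 33.2% of all genes in that fit were called higher and 4.11% lower. An unadjusted p under 0.05 was found for 1 of the 5 as higher (Kcnj8) and 1 as lower (Kcna5). Both of these met the level of 5 on 3 arrays through the group where they are high, so nothing is read from these counts.

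Trpm3, a channel that neurosteroids open, had 2.49, 7.32 and 2.49 on the CD31+ arrays and 2.50, 6.74 and 2.49 on the double positive arrays. It was bright on both arrays numbered 2 and near the floor elsewhere, and a second probe set of the gene had 5.33 and 4.79 on these arrays. Kcnma1, the pore of the large-conductance calcium-activated potassium channel, had 4.68 and 4.34 on them and 2.39 on the other 4 arrays. Both arrays numbered 2 exceeded every other array by more than 1 for 5 of the 292 channel probe sets (1.71%), those of Trpm7, Trpm3, Kcnma1 and Kcnq1ot1, and for 0.957% of all probe sets. A control probe set that reads B1 repeats was also brightest there, at 12.3 and 12.8, and lay between 7.47 and 8.11 on the other arrays. Its part in the channel values was not tested.

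**Figure D5:**
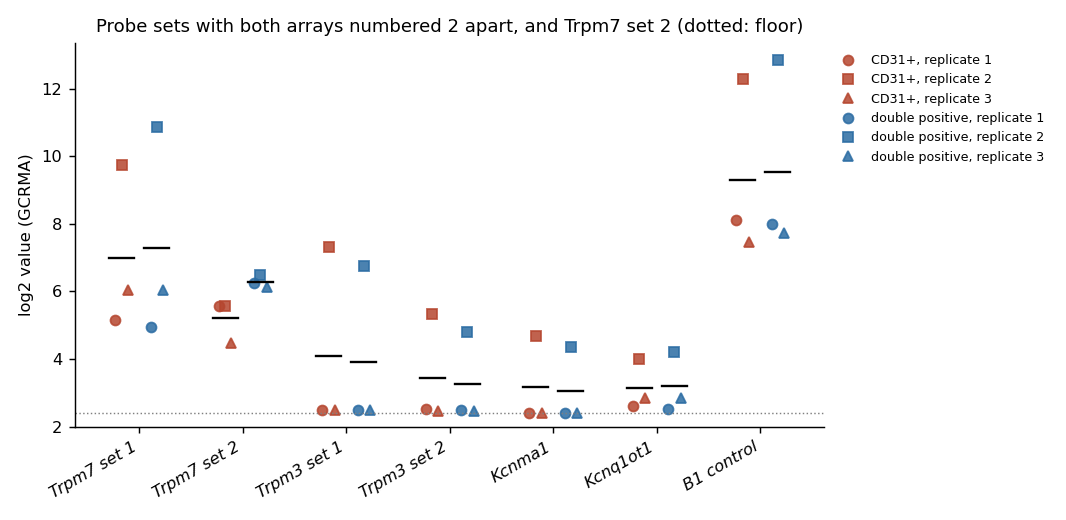
Log2 level on each array of the probe sets of Trpm7, Trpm3 (both sets), Kcnma1 and Kcnq1ot1 (its second probe set) on which both arrays numbered 2 exceed the others by more than 1, of a second Trpm7 probe set without this pattern, and of the B1 control, with 1 marker shape per replicate number, bars at the group means and the floor dotted. The brighter Trpm3 probe set reaches 7.32 and 6.74 on the arrays numbered 2 and lies at 2.49 to 2.50 on the others.

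Other calcium and ion transport genes were listed by role, apart from the channel genes, and 78 of the 88 listed were measured. None was called higher or lower by limma over all probe sets. An unadjusted p under 0.05 was found for 7 as higher and for 2 as lower, where 12.5% and 2.12% of all genes had one. At the floor on all 6 arrays were 25, or 32.1%, against 26.1% of all genes. In either group 19 (24.4%) reached 5 or more, against 24.7% of all genes. Among bright probe sets, where 19 of them were in the fit, 5 were called higher (Ano6, Saraf, Clcn3, Smdt1 and Clic4) and 2 lower (Lrrc8c and Lrrc8d), beside the 33.2% and 4.11% of all genes. Of these, Clcn3 and Lrrc8c reached 5 in the group where they are high alone, and nothing is read from the counts. With centred arrays as well 0 were higher and 5 lower, where 530 and 405 of the 4207 genes in that fit were. Ano6, a calcium-activated scramblase and channel, had 9.29, 8.81 and 8.73 on the CD31+ arrays and 10.06, 9.97 and 10.40 on the double positive arrays, with 1.20 between the means (adjusted p = 0.150 from limma). Saraf, which restrains store-operated calcium entry, had 7.73, 7.80 and 6.98 and 9.05, 8.64 and 8.68, with 1.28 between the means (adjusted p = 0.226 from limma). Lrrc8c and Lrrc8d, subunits of the volume-regulated anion channel, differed the other way. Lrrc8c had 6.81, 5.68 and 5.32 and 4.30, 4.17 and 4.17 (difference -1.72, adjusted p = 0.287 from limma), and Lrrc8d had 7.01, 6.46 and 6.15 and 5.47, 4.67 and 5.23 (difference -1.42, adjusted p = 0.252 from limma). No value overlapped between the groups for any of these 4 genes, but they were named for their small p, so nothing is read from this. Over the list the groups did not overlap for 12 of 78 genes as higher and 6 as lower, against 16.9% and 3.42% of all genes.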

How the data were processed

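RNA (20 ng per sample) was amplified in 2 rounds, biotin-labelled and hybridized to mouse GeneChip arrays. The authors normalized the arrays with GCRMA, and the deposited values are log2 abundances, 1 per probe set and array; versions are not given in the sources used here, and raw intensities were not used. Genes came from the platform table, and 34741 of the 34945 probe sets with 1 gene matched RefSeq. The test was limma's (version 3.58.1 under R 4.3.3; lmFit with default eBayes, no filter, no block, Benjamini-Hochberg adjustment over 45037 probe sets, 5% FDR). The prior degrees of freedom were 0.356 over all probe sets and 4.92 over the 6088 bright ones, beside 4 residual degrees of freedom. The submitters describe paired samples, and the replicate numbers were read as the pairs. Arrays sharing a number had correlations of 0.341, 0.475 and 0.418 after subtraction of the group means, over 5764 probe sets. Other pairs of arrays had -0.405 to 0.0566. With 3 arrays a group this subtraction lowers the other pairs when those sharing a number are positive, so the contrast is partly built in. Nothing states how many animals each pool held. The channel genes and lists were chosen with earlier results of these data known. Genes were named if they passed 5% FDR over all or over bright probe sets, if their mean reached 5 in either group, or as the highest of a family with no such gene; of the other calcium and ion transport list, the 4 of smallest p with a mean of at least 5 were named. Kcnq1, Kcnk5, Scn3b, Cacna1e, Abcc9 and other genes outside these rules were named after their values were seen. The tests were checked on simulated data. Plots were made in Python 3.11.15 with matplotlib 3.10.9. Alternatives are given in the closing section.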

Additional observations from a re-analysis of the deposited data

How the results depend on the processing

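With the replicate block 0 channel genes were called higher and 0 lower by limma, where 2 and 0 of all genes were. At an unadjusted p under 0.05 from limma in that fit 4 and 2 were, where 2291 and 374 of all 18193 genes were. With any 1 array left out 0 to 1 channel genes were higher and 0 to 1 lower, where 31 to 66 and 4 to 34 of all genes were. At 1% FDR 0 and 0 channel genes were called, and nothing is read from these counts. Without both arrays numbered 2, an alternative chosen after seeing the data, 0 and 0 channel genes were called, where 16 and 6 of all genes were. Centring over all probe sets gave 2 channel genes higher and 125 lower, and 3 and 57 of the other calcium and ion transport genes, where 1310 and 12217 of all genes were called, because it shifts values at the floor by construction. Among bright probe sets 0 channel genes were higher, with or without centring, and 1 was with the block (Kcnj8, adjusted p = 0.00822 from limma). Kcnj8 met the level of 5 on 3 arrays through the group where it is high, so nothing is read from that call. Of the 19 other calcium and ion transport genes in that fit 5 were higher and 2 lower, where 1398 and 173 of 4207 genes were. With the replicate block there these were 7 and 2, where 1950 and 210 of all genes were, and with centring 5 were lower, where 405 of all genes were. With probe sets averaged 1 was higher, and with any probe set of a gene counted 1 was lower. Nothing is read from either count, since no share over all genes stands beside it. Kcna5 and Kcna2 kept their signs under each alternative run, although the Kcna2 difference of 1.81 was 0.41 with probe sets averaged and 1.13 with centring. Signs turned for genes that did not pass the test. Kcnj11 had -0.61 with centring, over all or bright probe sets, -0.0276 to 0.13 with 1 array left out, and -0.0612 at its probe set of smallest p. Trpm7 had -0.37 with centring, over all or bright probe sets, -1.48 to 1.69 with 1 array left out and -0.10 without both arrays numbered 2. Cacna1a had -0.31 with centring and -0.0166 to 0.57 with 1 array left out. Cacng2 had -0.23, -0.36 to 0.92, and -0.21 without both arrays numbered 2. With 1 array left out Kcnk6 ranged from -0.41 to 0.0823 and Trpv6 from -0.20 to 3e-04. The number of arrays and the floor limit what can be seen, and most channel genes lay too close to the floor to show a fall.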
